A study of Homo sapiens with 12 samples.

Results

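The genes described here are 43 genes of the cell cycle and of DNA replication, named by symbol and followed in 2 human lung epithelial lines that received medium or an extract of poultry dust. They cover the cyclins, cyclin-dependent kinases (CDKs) and CDK inhibitors of G1, 3 transcription factors, the genes that license and unwind replication origins, genes of nucleotide supply, and genes of G2 and mitosis. Every probe that the supplied annotation gives to these symbols was taken, 63 of 47320 probes on the array, which together name 20045 genes. The members are listed by symbol, with no threshold on their values. Of the 63 probes, 59 were detected often enough to be tested, among 24467 tested probes, and they measure 42 of the 43 genes. The missing gene is CCNE2, a cyclin of the G1/S transition, whose 1 probe was detected on 0 of 12 arrays.

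A549 comes from a lung adenocarcinoma, and BEAS-2B from normal bronchial epithelium immortalised with a hybrid virus that carries the SV40 large T antigen. Cells of both lines were grown in serum or complete medium and then went without serum overnight. The 6 groups are BEAS-2B control, BEAS-2B with dust extract for 1 h and for 6 h, and the same 3 conditions in A549. Control cells received medium alone and the labels give them no time, while the extract was used at 0.25%. Each group has 2 arrays, numbered 1 and 2. No label states that the numbers stand for separate cultures, and p-values therefore measure only how far these arrays differ, which may in part be technical. All 12 arrays lie on 1 chip, with each line and each number in neighbouring positions, so line or number and position on the chip cannot be told apart.

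Cells enter the cycle when D-type cyclins with CDK4 or CDK6, and then cyclin E with CDK2, phosphorylate the retinoblastoma protein and release E2F factors. The E2F factors switch on genes of DNA replication, among them the MCM genes that encode the helicase loaded at origins. Later, the DREAM and MuvB complexes together with B-MYB and FOXM1 control genes of mitosis. The inhibitors p16 (CDKN2A) and p15 (CDKN2B) act on CDK4 and CDK6, and p21 (CDKN1A) and p27 (CDKN1B) act on CDK2. Cells without serum tend to stop before S phase, and large T antigen is known to bind the retinoblastoma family and free E2F. A549 is known to have lost the chromosomal region that holds CDKN2A.

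Between 37.5% and 41.1% of all probes were detected per array. The dimmest probe still detected had a log2 signal of 5.18 to 5.32, depending on the array. All 6 epithelial markers were detected on all arrays of both lines. The bronchial basal markers KRT5 and S100A2 were detected on 6 of 6 BEAS-2B arrays and on 0 of 6 A549 arrays. Of 8 alveolar or A549-associated markers, 4 were detected on all 6 A549 arrays and 0 on all 6 BEAS-2B arrays. The 4 were ALDH1A1, ALDH3A1, AKR1B10 and AKR1C2, of which ALDH3A1 was also detected on 5 BEAS-2B arrays. SFTPB was detected on 1 array of each line. NKX2-1, SFTPC and NAPSA were not well above background in either line. None of the 4 endothelial markers was kept, nor were PTPRC and CD3E of the 5 leukocyte markers. The other 3 leukocyte markers, CD14, CD68 and LYZ, were detected on all BEAS-2B arrays, and CD14 and CD68 on all A549 arrays. Of 5 fibroblast markers, COL1A1 was detected on 6 BEAS-2B arrays and 4 A549 arrays, and none of the others on more than 2 arrays of a line. The 2 arrays of a BEAS-2B group lay further apart than those of an A549 group: they correlated across probes by 0.962 to 0.97, with 1195 to 1525 probes over 2-fold apart, against 0.979 to 0.981 and 525 to 681 probes in A549. Signals are log2 values after background correction and quantile normalization, and they do not compare one probe with another. Fewer cells in a phase and less RNA per cell cannot be told apart in such bulk samples.

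The first comparison set BEAS-2B against A549 over the 3 conditions together, and most members differed. Of the 42 measured members, 31 passed (adjusted p under 0.05, limma, over all tested probes), 28 of them higher in BEAS-2B and 3 lower. Among all tested probes 42.8% passed in this comparison, 21.6% higher and 21.1% lower. The median log2 difference of the members was 0.66, against 0.02 over all tested probes, and 34 of 42 were above 0. All 6 BEAS-2B arrays lay above all 6 A549 arrays for 24 members and below them for 2, CCND3 and CCNE1, while 16 overlapped. Over all probes the shares were 14.6% above and 14.5% below. This comparison treats the 3 conditions of a number as separate arrays. With the conditions of each number averaged first, so that 2 values stand against 2, 19 of 42 members and 24.6% of all probes passed. In untreated cells alone, 18 of 42 members passed, 16 higher and 2 lower, against 22.4% of all probes, 10.9% higher and 11.5% lower. Without the A549 control array numbered 1 that count fell to 9, namely CDKN2A, CCND2, CDKN2B, CCND3, CDK2, CDC25A, MCM2, CDC20 and TTK.

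**Figure D1:**
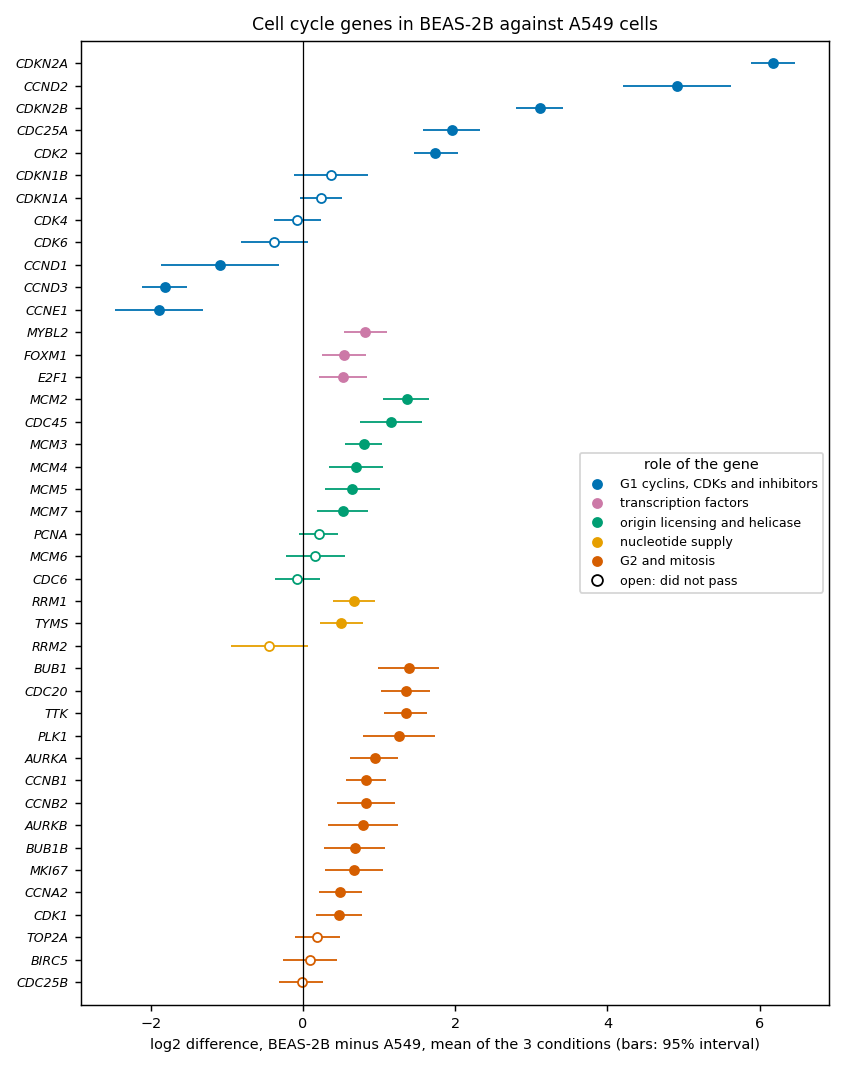
The log2 difference of BEAS-2B minus A549 (horizontal axis, mean of the 3 conditions, bars are 95% intervals) is drawn for each of the 42 measured genes, coloured by role, with filled points for genes that passed. CDKN2A, CCND2 and CDKN2B lie far to the right, CCNE1, CCND3 and CCND1 to the left of 0, and most genes of replication and mitosis on the right of 0 with differences of at most 1.39.

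CDKN2A and CDKN2B, inhibitors of CDK4 and CDK6, were called higher in BEAS-2B by their brightest probes, and CDKN2A had the widest gap of the 42 measured members. CDKN2A, which encodes p16 and p14ARF, had a log2 signal of 10.66 at the lowest, 10.91 at the median and 11.23 at the highest over the 6 BEAS-2B arrays, against 4.56, 4.77 and 4.89 over the 6 A549 arrays. It was not well above background on any A549 array, so the level in BEAS-2B was at least 51.9-fold higher (adjusted p = 8.83e-11). Bounds of this kind set the mean of BEAS-2B against the dimmest detected probe of each A549 array. A second CDKN2A probe was detected on 6 of 6 BEAS-2B arrays and 0 of 6 A549 arrays, and a further CDKN2A probe was not well above background on any of the 12 arrays.

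CDKN2B, the neighbour of CDKN2A that encodes p15, had signals of 7.57, 8.11 and 8.53 (lowest, median and highest) in BEAS-2B, against 4.69, 4.98 and 5.38 in A549. It was detected on 1 of 6 A549 arrays, and the log2 difference was 3.11 (SE 0.14, adjusted p = 2.96e-08). In untreated cells, where neither A549 array detected it, the level in BEAS-2B was at least 8.4-fold higher. Its second probe gave 2.82, but a further probe of CDKN2B, detected on 2 BEAS-2B arrays and 0 A549 arrays, gave 0.20 (adjusted p = 0.361). The 2 inhibitors of CDK2 did not pass: the difference was 0.24 for CDKN1A (95% interval -0.04 to 0.51) and 0.37 for CDKN1B (-0.12 to 0.85).

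The D-type cyclins, partners of CDK4 and CDK6, did not move together. CCND2 had signals of 7.80, 9.50 and 10.51 in BEAS-2B, against 4.35, 4.38 and 4.49 in A549, where this probe was detected on no array. On this probe the level in BEAS-2B was at least 17.1-fold higher (adjusted p = 5.15e-07). The second CCND2 probe was detected on 1 of 6 A549 arrays and gave a smaller log2 difference of 2.60, or 6.06-fold (adjusted p = 1.22e-05). CCND3 was lower in BEAS-2B, with signals of 11.27, 11.57 and 11.81 against 13.20, 13.44 and 13.45 in A549, a log2 difference of -1.82 (SE 0.13, adjusted p = 1.1e-06). CCND1 had signals of 9.27, 11.25 and 11.98 in BEAS-2B, against 11.89, 12.15 and 12.26 in A549, so the ranges overlapped. Its difference of -1.09 (SE 0.35) passed at an adjusted p of 0.0257. The CCND1 call was lost when 1 of 6 arrays was left out, namely the BEAS-2B array of 1 h or 6 h numbered 2, the A549 arrays of 1 h or 6 h numbered 1, or the A549 arrays of control or 1 h numbered 2 (adjusted p 0.0523 to 0.0676). Without all BEAS-2B arrays numbered 2 the CCND1 difference was -0.36, and without all those numbered 1 it was -1.82. It also no longer passed with the conditions of each number averaged first (adjusted p = 0.144).

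CCNE1, the cyclin partner of CDK2, was lower in BEAS-2B: its signals were 5.76, 6.5 and 7.46, against 8.31, 8.48 and 8.64 in A549. The log2 difference was -1.89 (SE 0.26, adjusted p = 0.000146). A second CCNE1 probe, detected on 1 BEAS-2B array and 3 A549 arrays, gave -0.19 (adjusted p = 0.434), so this call rests on 1 probe. CDK2 itself was higher in BEAS-2B by 1.74 (SE 0.13, adjusted p = 1.48e-06), and its second probe gave 2.13. CDC25A, the phosphatase that activates CDK2, was higher by 1.96 (SE 0.17, adjusted p = 4.58e-06). Its second probe gave 0.82. The kinases CDK4 and CDK6 did not pass, with differences of -0.08 (95% interval -0.38 to 0.23) and -0.38 (-0.82 to 0.06).

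**Figure D2:**
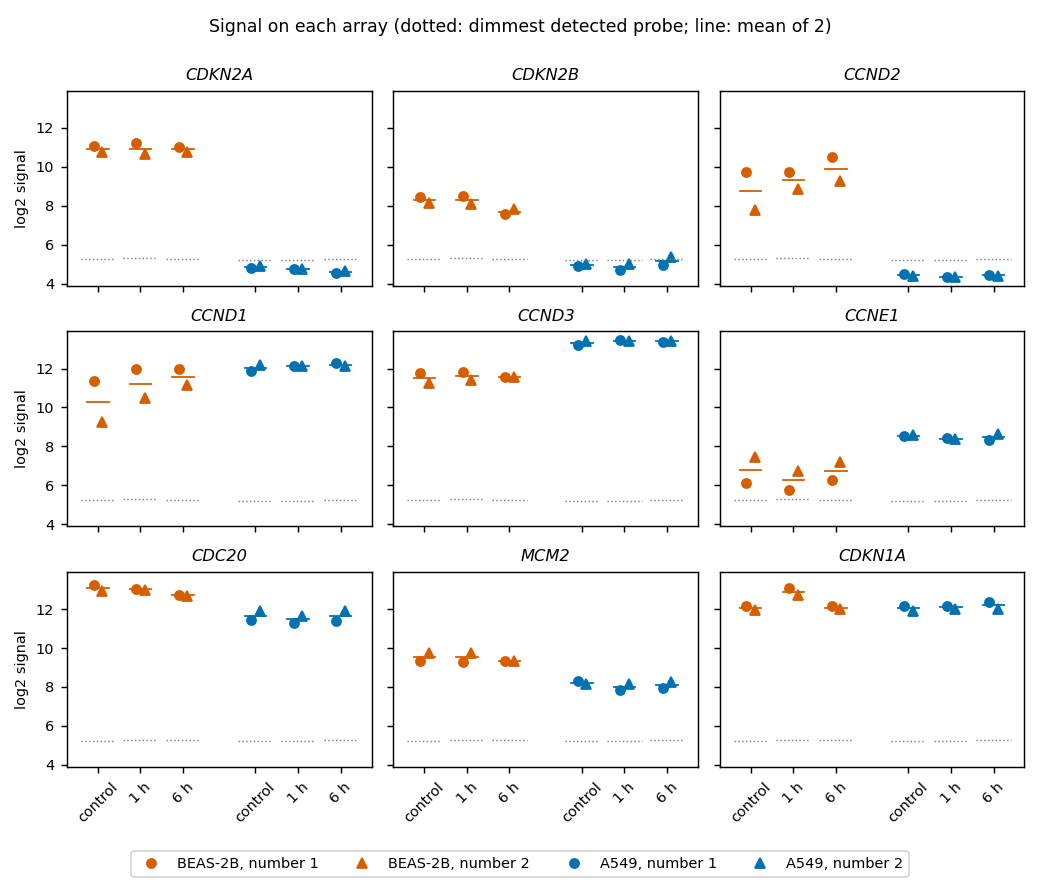
Each panel gives the log2 signal of 1 gene on each array: BEAS-2B at the left and A549 at the right, by condition, circles for number 1, triangles for number 2, a line at the mean of the 2 arrays and a dotted line at the dimmest detected probe. The probes drawn for CDKN2A and CCND2 lie below the dotted line in A549, and the 2 numbers of BEAS-2B lie apart for CCND1, CCND2 and CCNE1.

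All 3 transcription factors were higher in BEAS-2B, at modest size. MYBL2, which encodes B-MYB, had signals of 5.52, 5.86 and 6.11 in BEAS-2B, against 4.85, 5.0 and 5.3 in A549, a log2 difference of 0.82 (SE 0.13, adjusted p = 0.000382). It was detected on 1 of 6 A549 arrays, and in untreated cells its level in BEAS-2B was at least 1.53-fold higher. FOXM1, a driver of mitotic genes, had signals of 8.13, 8.38 and 8.67 in BEAS-2B, against 7.50, 7.90 and 8.06 in A549 (difference 0.54, adjusted p = 0.00577). E2F1 lay close to background, with signals of 5.76, 5.96 and 6.28 in BEAS-2B, against 4.99, 5.53 and 5.71 on the A549 arrays, of which the 1 h array with the lowest signal did not detect it. Its difference of 0.52 (adjusted p = 0.0121) and that of FOXM1 no longer passed with the conditions of each number averaged first (0.0872 and 0.0713).

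Origins are licensed before S phase by loading of the MCM2 to MCM7 helicase, and CDC45 then helps to activate it. RefSeq promoter sequences (GRCh38.p14, from 250 bases before to 50 after the start of transcription) matched 33 of the 43 members. They were searched on both strands for 3 kinds of motif: E2F sites (TTTCCCGC, TTTCGCGC, TTTGCCGC or TTTGGCGC), the CHR element of mitotic genes (TTTGAA) and the CCAAT box (CCAAT). An E2F match was found in 6 of the 7 licensing promoters, against 908 of 27305 promoters in all (3.33%). It was found in 10 of the 33 members. The promoters of MCM2 and MCM3, both higher in BEAS-2B, are shown beside that of MCM6, which did not pass and holds the most E2F matches of any member, 4 against 2 in each of MCM2, MCM3, MCM7 and E2F1. MCM2 lies at chr3:127598161-127598460 on the + strand, MCM3 at chr6:52284693-52284992 and MCM6 at chr2:135876394-135876693, both on the - strand. Capitals mark matches to any of the 3 motifs, the start of transcription follows base 250, and each sequence runs 5′ to 3′.
MCM2: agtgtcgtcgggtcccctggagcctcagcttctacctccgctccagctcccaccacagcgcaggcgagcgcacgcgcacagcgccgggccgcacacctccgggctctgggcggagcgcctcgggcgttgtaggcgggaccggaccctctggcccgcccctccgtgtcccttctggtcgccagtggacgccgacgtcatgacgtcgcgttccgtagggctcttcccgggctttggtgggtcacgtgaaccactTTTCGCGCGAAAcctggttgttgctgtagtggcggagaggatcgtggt
MCM3: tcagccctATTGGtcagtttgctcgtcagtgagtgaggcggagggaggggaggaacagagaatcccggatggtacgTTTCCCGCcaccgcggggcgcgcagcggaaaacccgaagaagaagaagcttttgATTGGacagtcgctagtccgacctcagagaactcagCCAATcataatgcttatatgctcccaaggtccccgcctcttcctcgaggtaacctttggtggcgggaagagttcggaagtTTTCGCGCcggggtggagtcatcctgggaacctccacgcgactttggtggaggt
MCM6: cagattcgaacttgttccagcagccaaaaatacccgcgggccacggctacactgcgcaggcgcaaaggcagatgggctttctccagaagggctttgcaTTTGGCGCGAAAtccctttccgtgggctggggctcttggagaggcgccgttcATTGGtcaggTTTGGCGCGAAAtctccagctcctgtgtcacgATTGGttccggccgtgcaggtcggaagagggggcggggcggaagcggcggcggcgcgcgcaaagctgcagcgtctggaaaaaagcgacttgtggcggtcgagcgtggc
The 2 MCM2 matches overlap, lie just after the start of transcription, and read as one run of capitals. In MCM3 the E2F matches lie at some distance before the start and across it, and the remaining capitals are 3 CCAAT boxes. In MCM6 the 4 E2F matches form 2 overlapping pairs before the start, beside 2 CCAAT boxes. A match describes these letters only and shows no binding.

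Of the 9 licensing and helicase genes, 6 passed and all 6 were higher in BEAS-2B. The shares among all tested probes were 42.8% passing in either direction and 21.6% passing as higher. MCM2 had signals of 9.27, 9.33 and 9.76 in BEAS-2B, against 7.87, 8.14 and 8.29 in A549, a log2 difference of 1.36 (SE 0.14, adjusted p = 1.63e-05). CDC45 had signals of 10.40, 10.93 and 11.29 in BEAS-2B, against 9.48, 9.75 and 10.20 in A549 (1.16, SE 0.18). MCM3 had 11.79, 11.97 and 12.06 in BEAS-2B, against 10.99, 11.14 and 11.34 in A549 (0.80, SE 0.11). These 3 genes were named for the widest line differences of the 9, so their lack of overlap between the lines is no separate result. Over all probes 14.6% had every BEAS-2B array above every A549 array. The difference was 0.70 for MCM4, 0.65 for MCM5 and 0.52 for MCM7, and these 3 did not pass with the conditions of each number averaged first (adjusted p 0.0699 to 0.139). The MCM7 call was also lost without the A549 array of 1 h numbered 1 (adjusted p = 0.0505). MCM6 (0.16), CDC6, the loader of the helicase (-0.08), and PCNA, the sliding clamp (0.21), did not pass. So on their brightest probes the subunits of 1 helicase ran from 0.16 to 1.36. Other probes gave 0.84 for MCM3 and 0.68 for MCM4, close to the brightest, but 0.91 and 0.51 for MCM7. Part of this range may therefore lie in the probes.

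The nucleotide supply genes were divided. RRM1, the large subunit of ribonucleotide reductase, was higher in BEAS-2B, with signals of 11.86, 11.99 and 12.28 against 11.22, 11.39 and 11.47 in A549 (0.67, SE 0.12, adjusted p = 0.00112). RRM2, the small subunit made in S phase, had 7.41, 8.07 and 8.73 in BEAS-2B, against 8.40, 8.49 and 8.81 in A549. Its difference of -0.45 (SE 0.23) did not pass (adjusted p = 0.144). TYMS, thymidylate synthase, had 10.48, 10.68 and 11.01 in BEAS-2B, against 9.97, 10.25 and 10.43 in A549 (0.50, adjusted p = 0.00813). The TYMS call was lost with the conditions of each number averaged first (adjusted p = 0.105).

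Promoters of mitotic genes often carry a CHR element near CCAAT boxes, read by the DREAM and MuvB complexes and by NF-Y. Among the 12 mitotic members with a promoter, 7 held a CHR match and 10 a CCAAT box, against 4212 (15.4%) and 9747 (35.7%) of the 27305 promoters. Among the 7 licensing promoters, 0 held a CHR match and 6 a CCAAT box. Both motifs are short, so many promoters hold them. CDC20 (chr1:43358731-43359030, + strand), PLK1 (chr16:23678639-23678938, + strand) and CDK1 (chr10:60778081-60778380, + strand) are shown as examples of promoters that hold both CHR and CCAAT matches. CDK1 also holds the 1 E2F match among the 12 mitotic promoters. Capitals again mark the matches.
CDC20: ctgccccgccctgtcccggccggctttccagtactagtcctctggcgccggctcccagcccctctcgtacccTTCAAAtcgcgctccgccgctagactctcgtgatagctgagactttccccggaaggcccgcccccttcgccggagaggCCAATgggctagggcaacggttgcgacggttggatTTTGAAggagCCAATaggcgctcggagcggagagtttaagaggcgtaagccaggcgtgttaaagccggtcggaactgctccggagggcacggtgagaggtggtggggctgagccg
PLK1: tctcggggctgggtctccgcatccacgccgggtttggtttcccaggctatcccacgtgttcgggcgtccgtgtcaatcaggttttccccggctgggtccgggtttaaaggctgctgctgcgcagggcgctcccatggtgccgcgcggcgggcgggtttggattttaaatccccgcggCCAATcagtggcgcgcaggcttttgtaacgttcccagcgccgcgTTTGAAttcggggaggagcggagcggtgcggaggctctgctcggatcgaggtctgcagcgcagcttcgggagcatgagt
CDK1: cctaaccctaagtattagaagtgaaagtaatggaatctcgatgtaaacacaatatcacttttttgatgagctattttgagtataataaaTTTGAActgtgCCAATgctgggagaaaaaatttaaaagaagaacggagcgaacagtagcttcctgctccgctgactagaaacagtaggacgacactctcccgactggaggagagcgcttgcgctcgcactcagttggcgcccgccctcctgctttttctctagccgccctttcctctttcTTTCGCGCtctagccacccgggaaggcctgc
In CDC20 the capitals are 2 CHR matches and 2 CCAAT boxes, in PLK1 1 of each, and in CDK1 1 CHR match, 1 CCAAT box and, near the 3′ end, the E2F match.

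Genes of G2 and mitosis were higher in BEAS-2B: 12 of 15 passed and all 12 were higher, with a median log2 difference of 0.79 over the 15. Among all tested probes 42.8% passed, 21.6% of them all as higher. BUB1, a kinase of the spindle checkpoint, had signals of 9.0, 9.37 and 9.66 in BEAS-2B, against 7.58, 8.03 and 8.45 in A549 (1.39, SE 0.18, adjusted p = 9.72e-05). CDC20, the activator of the anaphase-promoting complex, had 12.69, 12.96 and 13.22 in BEAS-2B, against 11.30, 11.53 and 11.91 in A549 (1.35, SE 0.14, adjusted p = 2.19e-05). TTK, another checkpoint kinase, had 9.24, 9.56 and 9.86 in BEAS-2B, against 7.90, 8.22 and 8.53 in A549 (1.35, SE 0.13, adjusted p = 9.72e-06). These 3 were named for the widest line differences of the 15, so their lack of overlap between the lines is no separate result. Over all probes 14.6% had every BEAS-2B array above every A549 array. The mitotic kinases PLK1 and AURKA were higher by 1.26 and 0.94, and the cyclins CCNB1 and CCNB2 both by 0.83. AURKB (0.79), BUB1B (0.68), MKI67 (0.67), CCNA2 (0.49) and CDK1 (0.47) also passed. Of these, AURKB, MKI67, CCNA2, CDK1 and CCNB2 no longer passed with the conditions of each number averaged first (adjusted p 0.0565 to 0.123). TOP2A (0.19), the phosphatase CDC25B (-0.02) and survivin, BIRC5 (0.09), did not pass, so not every mitotic gene followed.

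Other genes of the same pathways, from lists of related genes, leaned the same way over the 3 conditions. Among all tested probes 42.8% passed in this comparison, 21.6% higher and 21.1% lower. The list counts treat the 3 conditions of a number as separate arrays, and none was made with those conditions averaged first. Of 38 measured other genes of G2 and mitosis, 33 passed, 31 higher in BEAS-2B and 2 lower, and the median log2 difference was 0.88. The widest were NDC80 of the kinetochore (2.24), the phosphatase CDC25C (1.99) and the kinesin KIF20A (1.95). Of 35 other replication genes, 20 passed, 19 higher and 1 lower, with a median of 0.43. Among them were the licensing factor CDT1 (1.18), the single-strand binding protein RPA2 (1.13) and GINS4 of the helicase complex, the 1 that was lower (-1.23). Of 21 other G1 regulators, 14 passed, all higher in BEAS-2B (median 0.57), led by E2F7 (1.88), SKP2 (1.67) and TFDP1, the partner of E2F proteins (1.30). A list of p53 targets, genes of stress and growth arrest, had 19 measured members and another balance, with 4 higher, 8 lower and a median of -0.27. In that list the stress cytokine GDF15 was lower in BEAS-2B by a log2 difference of -4.89, RPS27L by -1.82, and GADD45A was higher by 1.89.

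The next comparisons asked what the dust extract did to these genes. None of the 42 measured members passed in any of the 4 comparisons of extract with control (limma), at 1 h or 6 h, in either line. Few probes passed at all: 0.114% in BEAS-2B at 1 h, 0.0613% in BEAS-2B at 6 h, 0.0858% in A549 at 1 h and 0.00409% in A549 at 6 h. At an unadjusted p under 0.05 there was 1 member in BEAS-2B at 1 h (CDKN1A), 1 in BEAS-2B at 6 h (CDKN2B) and 0 in A549 at either time. Over all probes the shares at that level were 4.28% and 5.87% in BEAS-2B, and 2.37% and 3.79% in A549. A count of 1 of 42 members lies near that background. The median log2 change was 0 in BEAS-2B at 1 h, -0.15 in BEAS-2B at 6 h and -0.08 in A549 at both times, against -0.02 to -0.01 over all probes. With 2 arrays per group the median 95% interval of a member's change reached 0.55 to either side. That interval is not adjusted for the number of probes tested, and larger changes did not pass either. In BEAS-2B they reached 0.93 at 1 h and 1.27 at 6 h, so changes above 0.55 are not excluded.

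CDKN1A, the p21 gene, had the smallest p of any member at 1 h in BEAS-2B. Its log2 signals (number 1, then number 2) were 12.14 and 11.98 in control cells, 13.06 and 12.73 with extract for 1 h, and 12.14 and 12.01 with extract for 6 h. Both arrays of 1 h lay above all other BEAS-2B arrays, and those of 6 h lay at the level of the controls. CDKN1A was named for its p at 1 h, so the place of its 1 h arrays is no separate result. The share of all probes that separate in this way was not counted. The log2 change at 1 h was 0.83 (SE 0.21, 95% interval 0.36 to 1.30), which did not pass (adjusted p = 0.405). At 6 h it was 0.01 (SE 0.21). In A549 the changes of CDKN1A were 0.05 at 1 h and 0.16 at 6 h, on signals of 12.16 and 11.92 in control cells, 12.14 and 12.03 at 1 h, and 12.38 and 12.01 at 6 h. The change at 1 h differed between BEAS-2B and A549 by 0.79 (SE 0.30), with an unadjusted p of 0.025 and an adjusted p of 1.

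The cyclins CCND1 and CCND2 had the largest changes by size in BEAS-2B at 6 h, and also the widest spread. CCND1 had signals of 11.34 and 9.27 in control cells, 11.97 and 10.49 with extract for 1 h, and 11.98 and 11.16 with extract for 6 h (number 1, then number 2). The change was 0.93 at 1 h and 1.27 at 6 h (SE 0.60, 95% interval -0.06 to 2.60, adjusted p = 0.88). Within number 2 the CCND1 change was 1.22 at 1 h and 1.90 at 6 h, and within number 1 it was 0.63 and 0.64. CCND2 had signals of 9.74 and 7.80 in control cells, 9.75 and 8.88 at 1 h, and 10.51 and 9.26 at 6 h. At 1 h the CCND2 change was 0.01 within number 1 and 1.08 within number 2. Its change at 6 h was 1.12 (SE 0.56, adjusted p = 0.902), and 0.87 on its second probe. In both genes the control arrays of the 2 numbers lay further apart than the groups did. In A549 the CCND1 difference was 0.11 at 1 h and 0.18 at 6 h (SE 0.60), neither of which passed, and the brightest CCND2 probe was not well above background.

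CDKN2B had signals of 8.45 and 8.13 in BEAS-2B control cells, 8.53 and 8.09 at 1 h, and 7.57 and 7.84 at 6 h. Both arrays of 6 h lay below the other 4. CDKN2B was named for its unadjusted p at 6 h, so this is no separate result. The log2 change at 6 h was -0.59 (SE 0.25, 95% interval -1.13 to -0.04, adjusted p = 0.816). Its second probe gave -0.74 (adjusted p = 0.654), and the dim one -0.24. Genes of G2 and mitosis at 6 h in BEAS-2B had a median of -0.32, and 1 of 15 values was above 0, where 48.1% of all probes were above 0. The lowest were CCNB2 (-0.57) and BIRC5 (-0.53), BUB1B was that gene (0.14), and none passed. These genes share the same 4 arrays, so their signs are not independent of each other. At 6 h in A549 the 15 had a median of -0.08, and 4 were above 0.

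**Figure D3:**
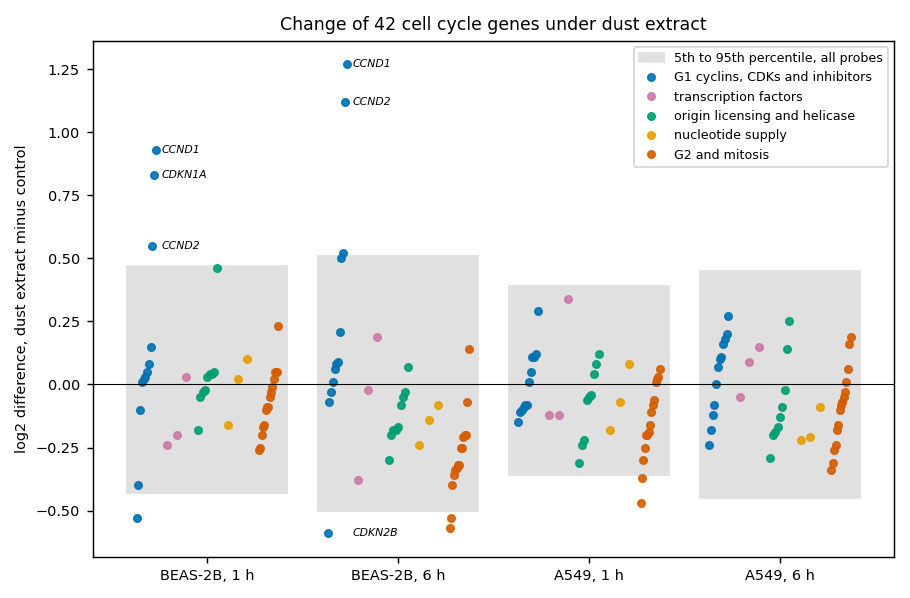
The log2 difference of dust extract minus control (vertical axis) is drawn for the 42 genes in each line and at each time, coloured by role, over a grey band from the 5th to the 95th percentile of all tested probes. Most genes lie inside the band, CCND1, CCND2 and CDKN1A of BEAS-2B lie furthest above it, and CDKN2B of BEAS-2B at 6 h lies below it.

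Set against 1 h of extract, 6 h also gave 0 of 42 members that passed, in BEAS-2B (0.0531% of all probes) and in A549 (0.0327%). At an unadjusted p under 0.05 there were 2 members in BEAS-2B, CDKN1A (-0.82, SE 0.21, adjusted p = 0.416) and CDKN2B (-0.61, SE 0.25, adjusted p = 0.772), and 0 in A549, against 5.99% and 3.49% of all probes. The test of whether BEAS-2B and A549 differed in their change under extract passed for 0 of 42 members at 1 h and at 6 h, against 0% and 0.00817% of all probes. At an unadjusted p under 0.05 there was 1 member at each time, CDKN1A at 1 h and CDKN2B at 6 h (-0.78, SE 0.35, adjusted p = 1), against 2.32% and 3.65% of all probes. The median interval of such a difference reached 0.78 to either side.

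The pathway lists gave 0 passing genes in all 4 comparisons of extract with control (limma). At an unadjusted p under 0.05 there were, in BEAS-2B at 6 h, 5 of 38 other genes of G2 and mitosis, with a median change of -0.25 over the list, and 0 of 35 other replication genes (median -0.10). KIF20A was among the 5, at -0.57 (SE 0.21, adjusted p = 0.734). In BEAS-2B at 1 h, 1 of those 38 had an unadjusted p under 0.05 (median -0.06) and 1 of the 35 (median -0.04). For A549 the counts were 1 of 38 (median -0.10) and 0 of 35 (median -0.07) at 1 h, and 3 of 38 (median -0.19) and 0 of 35 (median -0.16) at 6 h. Both of these lists had medians below 0 in both lines and at both times. The medians over all probes were also below 0, at -0.02 to -0.01. The changes at 1 h and 6 h of a line use the same control arrays, so the 2 times are not independent. The shares of all probes at that level (5.87% and 4.28% in BEAS-2B at 6 h and 1 h, 3.79% and 2.37% in A549) are the background to these counts, and several counts lie near it. Of the 21 other G1 regulators there were 2 at each time in BEAS-2B and 0 at each time in A549. Of the 19 p53 targets there were 4 at 1 h and 5 at 6 h in BEAS-2B, and 3 and 1 in A549. Apart from the 1 in A549 at 6 h, these p53 target counts lie well above the shares of all probes, though none of the genes passed. The changes went in both directions. In BEAS-2B the median of the list was 0.01 at 1 h (from -0.87 to 1.65) and -0.05 at 6 h (from -1.21 to 0.7). In A549 the medians were 0.17 and -0.05. These genes share the same few arrays, so the counts do not rest on independent genes. GADD45A, of that list, had a change of 1.65 (SE 0.38, adjusted p = 0.287) in BEAS-2B at 1 h.

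The 2 arrays of a group were also compared by their number, since the 2 arrays of each BEAS-2B group lay further apart than those of A549. In BEAS-2B, 11 of 42 members differed between number 2 and number 1 over the 3 conditions (limma, 7 higher and 4 lower in number 2). The share among all probes was 13.5%, with 7.64% higher and 5.88% lower. In A549, 2 of 42 members passed, against 3.68% of all probes, a share near that background. That count was 9 with quantile normalization without background correction, and 9 with the deposited matrix. The labels do not say what the numbers stand for, and each number holds all 3 conditions. Cell type markers moved with the number too. In BEAS-2B all 3 measured bronchial basal markers were lower in number 2 (log2 differences of -2.20 to -0.81), 3 of 3 measured leukocyte markers passed (2 higher and 1 lower), and 1 of 5 measured alveolar or A549-associated markers was higher (2.40). In A549, 3 of 6 epithelial markers were lower in number 2. Their part in the differences of the members was not tested.

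The 4 members that passed as lower in BEAS-2B number 2 were genes of G1. CCND1 had signals of 9.27, 10.49 and 11.16 (control, 1 h and 6 h) in number 2, against 11.34, 11.97 and 11.98 in number 1, a log2 difference of -1.45 (SE 0.21, adjusted p = 0.00194). CCND2 had 7.80, 8.88 and 9.26 in number 2, against 9.74, 9.75 and 10.51 in number 1 (-1.36, SE 0.19, adjusted p = 0.00159), and -0.92 on its second probe. CDK6 had 8.58, 8.48 and 8.94 in number 2, against 9.17, 9.39 and 9.84 in number 1 (-0.80, SE 0.13). CDC25A was lower by a difference of -0.55. Number 2 lay below number 1 in all 3 conditions for CCND1, CCND2, CDK6 and CDC25A, as it did for 21.2% of all probes. These 4 were named because they passed as lower over the same 3 conditions, so this is no separate result.

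CCNE1 went the other way, with 7.46, 6.74 and 7.18 in number 2, against 6.11, 5.76 and 6.26 in number 1 (1.09, SE 0.15, adjusted p = 0.00147). Its second probe, near background, gave -0.22 (adjusted p = 0.595). RRM2 had 8.56, 8.73 and 8.39 in number 2, against 7.73, 7.75 and 7.41 in number 1 (0.93, SE 0.13, adjusted p = 0.00177). Also higher in number 2 were the proliferation marker MKI67 (0.64), the inhibitor CDKN1B (0.63), CCNB2 (0.59), CDC45 (0.53) and MCM6 (0.50). The calls of CCND1, CCND2, CDK6, CCNE1 and RRM2 held in each of 12 fits that left out 1 array. Without the BEAS-2B control array of either number they were the 5 that passed, since MKI67 and CCNB2 were lost (adjusted p 0.0624 and 0.128). MCM6 was lost in all 12 fits. CDKN1B, CDC25A and CDC45 were lost when any 1 of the 6 BEAS-2B arrays was left out, and in some fits that left out an A549 array.

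In A549 the 2 members that passed were PLK1 and AURKB, both kinases of mitosis. PLK1 had 7.78, 7.45 and 7.69 in number 2, against 6.87, 6.61 and 6.85 in number 1 (0.86, SE 0.13, adjusted p = 0.00512). AURKB had 9.36, 9.30 and 9.50 in number 2, against 8.78, 8.35 and 8.67 in number 1 (0.78, SE 0.16, adjusted p = 0.0237). The AURKB call was lost when any 1 of the 6 A549 arrays was left out (adjusted p 0.0894 to 0.168), and the PLK1 call without the A549 control array of either number (0.0579). Number 2 lay above number 1 in all 3 conditions for 17 members and below for 3 in A549, where 20.1% and 20.2% of all probes did so. In BEAS-2B the counts were 17 above and 10 below, where 24.5% and 21.2% of all probes did so.

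**Figure D4:**
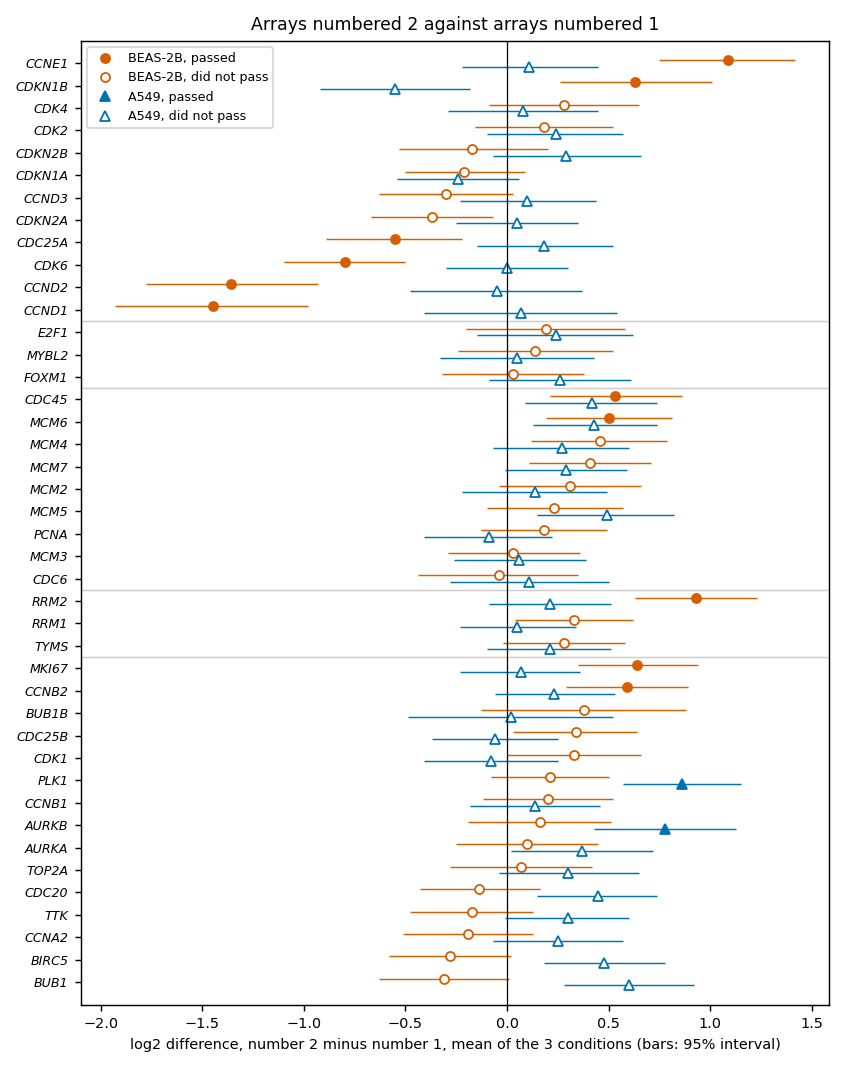
The log2 difference of number 2 minus number 1 (horizontal axis, mean of the 3 conditions, bars are 95% intervals) is drawn for 42 genes in BEAS-2B (circles) and A549 (triangles), filled where the gene passed. In BEAS-2B the G1 genes spread from -1.45 for CCND1 to 1.09 for CCNE1, and in A549 PLK1 and AURKB lie furthest to the right.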

How the data were processed

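RNA of 12 samples was hybridised to Illumina bead arrays. The authors deposited a table of unnormalized probe intensity values, each with its detection p-value, read out with GenomeStudio 2011.1 per the submitters' processing notes, and a matrix of normalized intensity values, used only as an alternative. The 24 other sample columns of the intensity table were not used. In R 4.3.3 with limma 3.58.1, signals were background-corrected and quantile-normalized by neqc (offset 16, log2, negative controls estimated through detection p-values). Kept were probes detected (p under 0.05) on 2 or more arrays.

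One model with 6 group means was fitted to all arrays and all kept probes (lmFit and eBayes, 6 residual and 4.79 prior degrees of freedom), and p-values were adjusted by Benjamini-Hochberg over 24467 probes within each of 12 comparisons. The number was tested in a model with a number effect within each line. A gene was called by its brightest probe on average. Differences are on the log2 scale with standard errors (SE). Any member may be named by rule. Values per line are given for the 3 of each role with the widest line difference, others named with array values were picked after their values were seen, and of each pathway list the 3 widest are named. The members, lists and tests were chosen with earlier results of these data known. The number of arrays limits the precision.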

Additional observations from a re-analysis of the deposited data

How the results depend on the processing

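In the dust, time and interaction comparisons 0 of 42 members passed under every alternative that was run. The untreated lines gave 9 to 19 passing members when 1 array was left out, against 18 with all arrays. Over the 3 conditions the range was 29 to 32, against 31. That count was 24 without all BEAS-2B arrays numbered 2, 31 without those numbered 1, and 19 with the conditions of each number averaged first, which leaves 2 values a line. These last 3 settings were chosen after seeing the data. For the A549 numbers the 2 passing members became 9 with quantile normalization without background correction, 9 with the deposited matrix, 4 where probes had to be detected at p under 0.01 on 4 or more arrays, and 0 to 2 with 1 array left out. For the BEAS-2B numbers the 11 became 7 with each line fitted alone, 7 with array weights, and 5 to 10 with 1 array left out. In the number model a group left with 1 array no longer bears on the number effect, so leaving out either of its arrays gives the same fit. For the other settings the cause was not tested. No member difference that passed changed its sign under any of these alternatives.

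The replicate numbers were used as a block within each line. Deviations of arrays with the same number correlated across probes by 0.402 to 0.467 within A549 and by 0.533 to 0.649 within BEAS-2B, and by -0.05 to 0.046 between lines, but with 2 numbers and no statement in the labels this shows no pairing. With the block, 0 members passed in the dust, time and interaction comparisons, 28 in the untreated lines and 34 over the 3 conditions, where RRM2 (adjusted p = 0.00229), CDK6 (0.00656) and CDKN1B (0.024) then passed. The lowest adjusted p of a member's dust or time change with the block was 0.062, for CDKN1A in BEAS-2B at 6 h against 1 h. Among the pathway lists, 1 other G1 regulator and 1 p53 target, GADD45A (adjusted p = 0.0422), passed at 1 h in BEAS-2B and 1 p53 target at 6 h.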
